A study of Mus musculus with 32 samples.

Results

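Lipoproteins carry triglyceride and cholesterol through the blood, and the liver is the main maker of their protein parts. Apob is the structural protein of very low density lipoprotein (VLDL), and the microsomal triglyceride transfer protein encoded by Mttp loads lipid onto it in the endoplasmic reticulum. Apoa1 and Apoa2 are the main proteins of high density lipoprotein (HDL), Apoc2 activates and Apoc3 inhibits lipoprotein lipase, Apoa5 favours triglyceride clearance, Apoe is a ligand for remnant receptors, and Apom carries sphingosine-1-phosphate on HDL. Apoa4 is best known from the intestine, and mouse liver also makes it. The genes described here were these 10, taken by symbol from a table of 47643 gene IDs, and all 10 were found and passed the filter on low counts in liver. Apoa1, Apoc3, Apoa4 and Apoa5 lie in 1 cluster on chromosome 9 (GRCm38), with Apoa1 at 46228580 to 46230466, Apoc3 at 46232933 to 46235636 on the opposite strand, Apoa4 at 46240696 to 46243459 and Apoa5 at 46268633 to 46271919. Apoe and Apoc2 lie in a second cluster on chromosome 7, at 19696109 to 19699188 and 19671579 to 19677941. Apob lies on chromosome 12 at 7977648 to 8016835, Mttp on chromosome 3 at 138089854 to 138144968, Apoa2 on chromosome 1 at 171225054 to 171226379 and Apom on chromosome 17 at 35128997 to 35132050.

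RNA was measured in male C57BL/6 mice of 10 weeks that were given corticosterone (cort) or its ethanol vehicle (veh) in drinking water, on a normal protein diet (NPD, 20% of calories) or a high-protein diet (HPD, 60% of calories, with less carbohydrate), for 7 days. The 4 combinations of treatment and diet had 4 libraries each in liver and in epididymal white adipose tissue (eWAT), 32 in all, and all mice were fasted before tissue was taken. The labels do not say that each replicate was a separate mouse, so p-values measure the spread between these libraries. Veh HPD replicate 4 of liver, which the study had marked as an outlier, was left out, which leaves 15 liver libraries with 3 in the veh HPD group. Levels are given in CPM, counts scaled to a common library size with TMM factors within a tissue. Each library held between 8933307 and 18057936 counts, and the 10 genes took 3.34% to 5.36% of the counts in liver. A gene was called when edgeR's quasi-likelihood test gave a Benjamini-Hochberg adjusted p under 0.05 over all genes tested.

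The summed CPM of 9 hepatocyte markers lay between 83487 and 125134 in the veh liver groups, between 118101 and 140624 in cort NPD and between 162554 and 278260 in cort HPD. The 9 did not move alike. With cort, 1 was called higher and 2 lower on the NPD (33.3%, beside 12.6% of all genes). On the HPD 4 were called higher and 1 lower (55.6%, beside 9.89%). The sum of 5 Kupffer cell markers was 150 to 221 in veh NPD, 59.4 to 78.5 in cort NPD, 165 to 174 in veh HPD and 89.3 to 158 in cort HPD. The sum of 5 red blood cell markers was 5271 to 7622 CPM in cort HPD and 1358 to 3544 in the other groups. In cort HPD 2 of the 5 were called higher and 1 lower against veh HPD (60%, beside 9.89% of all genes). Against cort NPD the counts were the same (60%, beside 5.88%). Enterocyte markers, which matter for Apoa4 and Apob, summed to 71.7 to 263 CPM in liver. Their median sums were 203 CPM in veh NPD, 145 in cort NPD, 134 in veh HPD and 93.5 in cort HPD. Of the 7 markers, 4, 1, 4 and 5 had no count in any library of these groups, in that order. Only 2 of the 7 passed the filter on low counts. The part of cell makeup in the results below was not tested, and in bulk tissue fewer cells of a type and less RNA per cell cannot be told apart.

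The promoters of Apoa4, Apoa1 and Mttp are shown because these genes passed the test in liver, in opposite directions for the neighbours Apoa4 and Apoa1. Each sequence is from RefSeq (GRCm38.p6), 5′ to 3′ on the strand of the gene, and runs from 250 bases before to 50 bases after an annotated start. Capitals mark TGTTCT, the reverse complement of AGAACA, a half-site of the glucocorticoid receptor element.
Apoa4, chr9:46240594-46240893, + strand: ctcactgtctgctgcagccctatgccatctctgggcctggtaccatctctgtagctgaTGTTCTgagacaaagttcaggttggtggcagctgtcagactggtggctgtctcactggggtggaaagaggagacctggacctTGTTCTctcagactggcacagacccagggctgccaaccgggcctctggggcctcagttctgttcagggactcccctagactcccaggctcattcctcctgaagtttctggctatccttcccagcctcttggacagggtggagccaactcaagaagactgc
Apoa1, chr9:46228380-46228679, + strand: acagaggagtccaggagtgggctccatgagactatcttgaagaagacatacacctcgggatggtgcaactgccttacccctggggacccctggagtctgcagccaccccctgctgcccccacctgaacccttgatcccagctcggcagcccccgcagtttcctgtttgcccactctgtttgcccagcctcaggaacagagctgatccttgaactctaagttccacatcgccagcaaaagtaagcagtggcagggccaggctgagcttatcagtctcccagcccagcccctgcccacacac
Mttp, chr3:138143369-138143668, - strand: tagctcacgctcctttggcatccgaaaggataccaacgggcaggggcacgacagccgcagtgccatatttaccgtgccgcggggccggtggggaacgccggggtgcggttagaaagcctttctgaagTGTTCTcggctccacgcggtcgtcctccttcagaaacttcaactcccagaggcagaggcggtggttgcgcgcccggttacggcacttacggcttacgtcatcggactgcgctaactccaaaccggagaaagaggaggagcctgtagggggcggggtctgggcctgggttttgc
The Apoa4 window held the half-site at positions -192 to -187 and -110 to -105, where 0 is the first base of the annotated start, and the Mttp window held it at -123 to -118. The Apoa1 window held none. Among the other genes, which were not called with cort in liver, the half-site was also present for Apoc2, Apoe and Apom and absent for Apoa2, Apoa5 and Apob. Of 32851 promoters of this length in the table, 19.0% held AGAACA on either strand. The same 3 windows held no AGGTCA (a nuclear receptor half-site, in 16.3% of all promoters), CAAAGTCCA (an HNF4A-type site, 0.475%), GTAAACA (a forkhead site, 3.65%) or TATAAA (the TATA box, 13.6%), on either strand, and no 2 matches overlapped. A match is a description of letters and not of binding. The 3 RefSeq starts lie inside the genes as GENCODE gives them, so the whole Mttp window and the second Apoa4 match are within the annotated gene. The Mttp gene has a further annotated start outside this window, which was not examined. Of the 10 genes, 9 had a promoter in the table. Apoc3 was the exception.

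Cort raised Apoa4, Apoc3 and Mttp in liver on both diets, and lowered Apoa1 on the NPD. On the NPD 3 of the 10 genes were called higher and 1 lower, where 12.6% of the 12391 genes tested were called. On the HPD 3 were called higher and 0 lower, against 9.89% of all genes. The groups did not overlap for 5 of the 10 genes on the NPD (18.5% of all genes tested) and for 4 on the HPD (21.2%). The median log2 fold change of the 10 genes was 0.39 on the NPD and 0.14 on the HPD, beside medians over all genes of -0.0052 and -0.0042.

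Apoa4 had the widest range of the 10, with liver group means 3.68 apart on the log2 CPM scale. It stood at 243, 269, 534 and 531 CPM in veh NPD and at 3025, 4550, 2667 and 3806 CPM in cort NPD. On the HPD it stood at 203, 296 and 320 CPM with veh and at 2284, 2332, 2095 and 1992 CPM with cort. Every cort library was above every veh library of its diet. The change was 8.91-fold on the NPD (log2 fold change 3.15, SE 0.26, adjusted p = 4.7e-08, edgeR) and 7.97-fold on the HPD (2.99, SE 0.29, adjusted p = 6.8e-07). The veh HPD library that was left out held 1416 CPM of Apoa4, above the other 3 of its group and below all cort libraries. With it, the change on the HPD was 1.99 (adjusted p = 0.022).

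Apoc3, the lipoprotein lipase inhibitor next to Apoa4, rose from 2627, 2919, 3429 and 4124 CPM in veh NPD to 9035, 11166, 7258 and 7569 CPM in cort NPD. With the HPD it rose from 2914, 3403 and 3365 CPM to 10132, 9628, 11410 and 8780 CPM. No cort library reached down to a veh library. The fold changes were 2.67 on the NPD (log2 1.42, SE 0.18, adjusted p = 1.3e-05, edgeR) and 3.09 on the HPD (log2 1.63, SE 0.20, adjusted p = 1.5e-05).

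Mttp, the lipid transfer protein of VLDL assembly, stood at 70.3, 70.6, 98.3 and 70.5 CPM in veh NPD and at 175, 163, 198 and 218 CPM in cort NPD. Its levels on the HPD were 74.5, 75.4 and 81.2 CPM with veh and 135, 140, 149 and 128 CPM with cort. All 8 cort libraries were above all 7 veh libraries, and the cort HPD libraries were all below the cort NPD libraries. On the log2 scale Mttp rose by 1.28 with cort in NPD mice (SE 0.14, adjusted p = 2.3e-06, edgeR) and by 0.84 in HPD mice (SE 0.16, adjusted p = 0.0013). Trmt10a, which has 67 to 187 counts per liver library, overlaps 7.4% of the exon bases of Mttp on the opposite strand, and the sources used here do not say whether counting used strand.

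Apoa1, the main HDL protein, fell on the NPD. It stood at 6604, 8542, 9409 and 8222 CPM with veh and at 6597, 3335, 3747 and 3080 CPM with cort. The highest cort library, replicate 1, lay just below the lowest veh library. The log2 fold change was -0.97 (SE 0.28, adjusted p = 0.030, edgeR), and the call did not hold without cort NPD replicate 2, 3 or 4 or veh NPD replicate 2, 3 or 4, where the change was -0.97 to -0.86 and the adjusted p 0.057 to 0.089. It also ended with library totals in place of TMM factors, without the filter and with all 16 liver libraries. On the HPD Apoa1 stood at 6481, 5779 and 7606 CPM with veh and spread from 2777 to 8943 CPM with cort, and its change of -0.20 (SE 0.30) did not pass the test (adjusted p = 0.74).

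**Figure D1:**
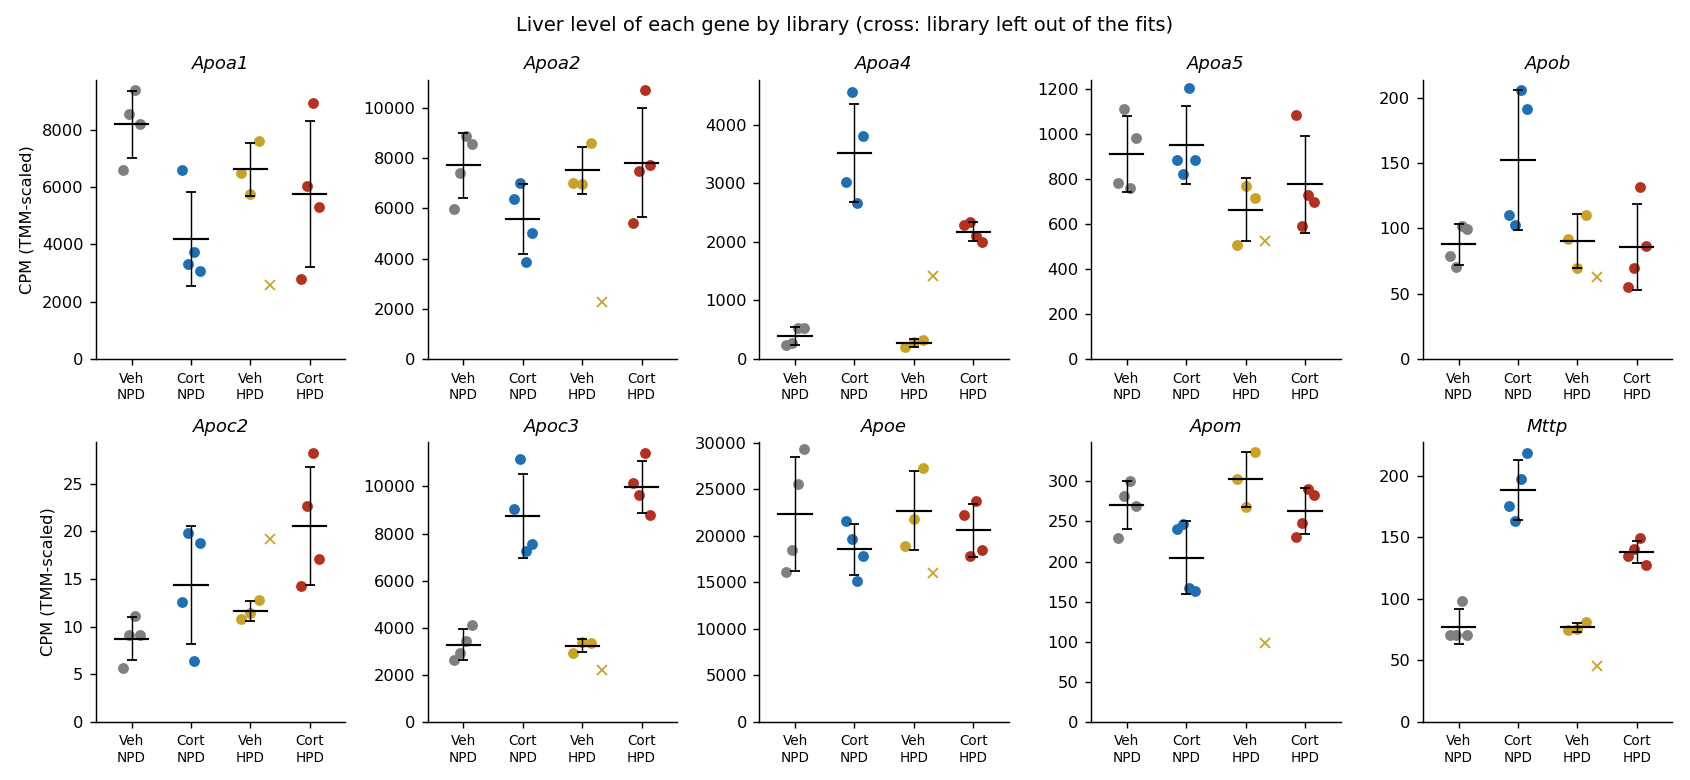
Level of each of the 10 genes in liver, in CPM scaled by TMM factors on a linear axis from 0, with 1 point per library, a line at the group mean and bars of 1 SD (n = 4, and 3 in veh HPD); the cross is the veh HPD library left out of the fits. Cort libraries of Apoa4, Apoc3 and Mttp lie above all veh libraries of their diet.

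The other 6 genes did not pass the test on either diet. Apob, the VLDL backbone, stood at 79.1, 70.5, 102 and 99.4 CPM in veh NPD and at 110, 102, 206 and 192 CPM in cort NPD. These groups did not overlap, but the change of 0.80 (SE 0.27) missed the threshold with an adjusted p of 0.064. It passed by DESeq2 (adjusted p = 0.024), with only the 2 groups in the fit (0.037) and without cort NPD replicate 1 (0.041), cort NPD replicate 2 (0.033) or cort HPD replicate 3 (0.026). On the HPD its change was -0.08 (SE 0.29, adjusted p = 0.90), with 69.4 to 110 CPM with veh and 55.2 to 132 CPM with cort.

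Apoc2, the activator of lipoprotein lipase, was at 5.61 to 11.1 CPM in veh NPD, 6.43 to 19.8 in cort NPD, 10.8 to 12.8 in veh HPD and 14.2 to 28.2 in cort HPD. Only on the HPD were all cort libraries above all veh libraries, and the changes of 0.73 (SE 0.30, adjusted p = 0.12) and 0.82 (SE 0.32, adjusted p = 0.11) missed the threshold. Without cort NPD replicate 3 the adjusted p was 0.016 on the NPD, with a change of 0.96, and 0.038 on the HPD. The annotated gene Gm44805 shares 79.5% of the exon bases of Apoc2 on the same strand and held 0 to 1 counts per liver library. How reads on the shared bases were counted is not given, so the Apoc2 level is uncertain.

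Apoa2, Apom and Apoe had values of -0.47 (SE 0.21, adjusted p = 0.15), -0.40 (SE 0.16, adjusted p = 0.10) and -0.27 (SE 0.20, adjusted p = 0.42) on the NPD. On the HPD they were 0.06 (SE 0.23), -0.20 (SE 0.17) and -0.14 (SE 0.21), with adjusted p from 0.51 to 0.91. Apom, the sphingosine-1-phosphate carrier, had a group mean of 270 ± 30.0 CPM (SD, n = 4) in veh NPD and 205 ± 45.5 CPM in cort NPD, with overlapping libraries. Apoe, which clears remnants, had group means between 18554 and 22700 CPM in liver and the smallest range of the 10 genes, 0.29 on the log2 scale, close to its spread within groups of 0.29. Apoa5 had changes of 0.06 (SE 0.20) and 0.23 (SE 0.21), and its 95% interval on the NPD ran from -0.32 to 0.45.

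**Figure D2:**
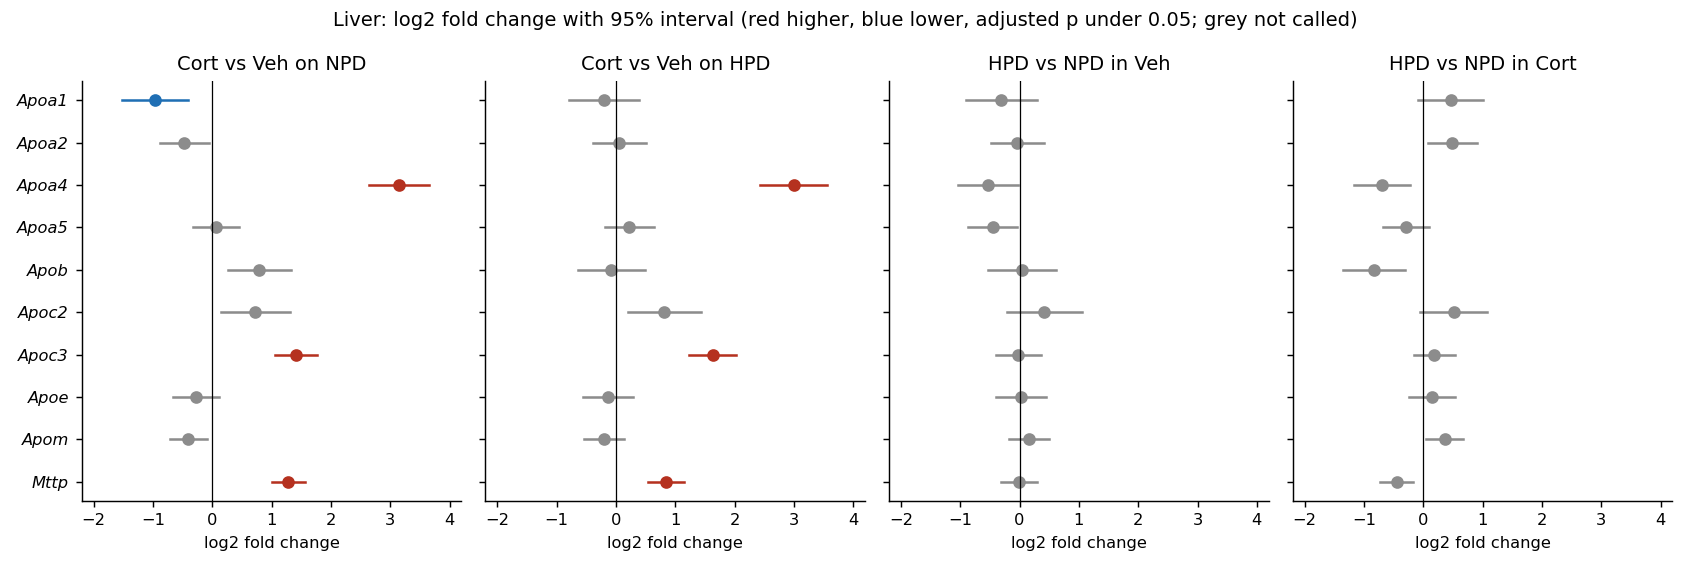
Log2 fold change of each of the 10 genes in liver (points) with its 95% interval (lines), in 4 panels for cort against veh on each diet and HPD against NPD under each treatment; red and blue are called higher and lower at an adjusted p under 0.05, and grey is not called. Apoa4, Apoc3 and Mttp are red in both cort panels, and all points of the diet panels are grey.

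Diet moved none of the 10 genes past the threshold. With veh, edgeR called 0 of the 10 and 0.169% of all genes, and DESeq2 called 0 of the 10 and 0.896% of all genes. Apoa5 alone of the 10 had an unadjusted p under 0.05 by edgeR, as did 9.4% of all genes. No group of the 10 was free of overlap (9.47% of all genes). The log2 changes ran from -0.53 (SE 0.26, Apoa4) to 0.42 (SE 0.32, Apoc2). The value of Apoa4 turned to 0.49 (adjusted p = 0.69) when the veh HPD library left out was put back. With cort, edgeR called 0 of the 10 and 5.88% of all genes. DESeq2 called 2 of the 10 and 8.68% of all genes, and 5 of the 10 and 21.3% of all genes had an unadjusted p under 0.05 by edgeR.

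In every cort HPD library Mttp and Apoa4 stood below their levels in every cort NPD library, so 2 of the 10 genes had groups that did not overlap, beside 13.3% of all genes. Mttp differed by -0.45 (SE 0.14, adjusted p = 0.061, edgeR). Apoa4 differed by -0.69 (SE 0.24, adjusted p = 0.092) and Apob by -0.83 (SE 0.27, adjusted p = 0.082). DESeq2 gave adjusted p-values of 0.030 for Mttp and 0.027 for Apob. Apob also passed without cort HPD replicate 3 (-1.11, adjusted p = 0.017) or cort NPD replicate 2 (-0.98, adjusted p = 0.046), Mttp without veh NPD replicate 3 (adjusted p = 0.047), and Apoa4 with only these groups in the fit (adjusted p = 0.049). With library totals in place of TMM factors those of Mttp and Apoa4 were 0.024 and 0.025, a scaling that moved the median over all genes to -0.18 here and to -0.24 for cort against veh on the HPD. The other 7 genes lay between -0.29 and 0.51.

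The test of the difference between the diets in the cort effect called 0 of the 10 genes by edgeR and 0 by DESeq2. Over all genes it called 0.113% by edgeR and 1.01% by DESeq2. Apob (-0.87, SE 0.39, unadjusted p = 0.041, adjusted p = 0.39) and Mttp (-0.44, SE 0.21, unadjusted p = 0.046, adjusted p = 0.40) had the smallest p. An unadjusted p under 0.05 by edgeR was found for 12.1% of all genes. For Apoa1 the difference was 0.77 (SE 0.42, adjusted p = 0.48), so its call on the NPD and not on the HPD was not shown to differ between the diets. The 95% interval for Apoa4 was -0.85 to 0.52, around a difference of -0.16.

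The genes whose liver pattern was most like that of Apoa4 were Gm30692, Plcxd1, Cyp39a1, Gpx3 and Ppil6, with root mean square differences of 0.47, 0.50, 0.58, 0.59 and 0.60 on the log2 scale over the 15 libraries, where Apoa4 itself had an SD of 1.66. Cyp39a1, an oxysterol hydroxylase of bile acid synthesis, had mean levels of 4.50 CPM in veh NPD, 45.2 in cort NPD, 5.47 in veh HPD and 58.1 in cort HPD. Gpx3, a secreted glutathione peroxidase, went from 4.83 to 30.9 CPM on the NPD and from 6.00 to 26.9 CPM on the HPD. The likeness is a description of these libraries.

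Around the 10 genes, 76 others of lipoprotein metabolism were listed by role, and 74 passed the filter in liver. With cort on the NPD 9 were called higher and 8 lower (23.0% of the 74, beside 12.6% of all genes), and on the HPD 6 were called higher and 12 lower (24.3%, beside 9.89%). With library totals in place of TMM factors the counts on the HPD were 4 higher and 20 lower, and the higher share of all called genes was 17.8% in place of 48.0%. By list, the called share on the NPD ran from 9.52% for regulators, below the share of all genes, to 42.9% for HDL remodelling, with 22.2% for other apolipoproteins and VLDL assembly, 25.0% for lipases and 36.4% for receptors. On the HPD it was 11.1% for VLDL assembly, 19.0% for regulators, 22.2% for other apolipoproteins, 36.4% for receptors, 37.5% for lipases and 42.9% for HDL remodelling. The median log2 change of the 74 was -0.03 on the NPD and -0.17 on the HPD. HPD against NPD called 0 with veh, and 1 higher and 7 lower with cort (10.8%, beside 5.88%). Of the 17 calls on the NPD 9 held in all 23 other fits (8 other settings and 15 fits that each left out 1 library), and of the 18 on the HPD 6 did. Of the 8 calls for HPD against NPD with cort, 3 held in all of them.

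Among 18 other genes of VLDL assembly and secretion, 2 were called higher and 2 lower on the NPD (22.2%, beside 12.6% of all genes). On the HPD 0 were called higher and 2 lower (11.1%, beside 9.89%). Tm6sf2, a membrane protein that VLDL lipidation needs, rose on the NPD from a mean of 23.9 to 76.2 CPM (1.67, SE 0.27, adjusted p = 0.00042, edgeR). Sort1, a sorting receptor that binds Apob, fell there from 3.59 to 0.659 CPM (-2.39, SE 0.47, adjusted p = 0.0015). P4hb, the partner subunit of Mttp in the transfer complex, was 0.50 higher (SE 0.13, adjusted p = 0.014), a call that ended in 1 other fit, without veh NPD replicate 1 (adjusted p = 0.062). Ces3a, a carboxylesterase of the endoplasmic reticulum, fell on both diets, by 1.35 (SE 0.23, adjusted p = 0.00041) and by 1.94 (SE 0.24, adjusted p = 2.7e-05), calls that ended with all liver libraries. Ces3b fell on the HPD by 1.34 (SE 0.30, adjusted p = 0.0088), and that call ended with all liver libraries and without veh HPD replicate 3 (-0.86, adjusted p = 0.055).

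Of 8 lipases and their regulators, 1 was called higher and 1 lower on the NPD, and 1 higher and 2 lower on the HPD. Lipc, hepatic lipase, fell by 0.99 (SE 0.19, adjusted p = 0.0012) and by 0.79 (SE 0.20, adjusted p = 0.014), though with all liver libraries the adjusted p was 0.051 and 0.30. On the HPD the call also ended without veh HPD replicate 2 or 3 (-0.73 and -0.71) and with only these groups in the fit (adjusted p = 0.063). Angptl4, an inhibitor of lipoprotein lipase, had means of 114, 104, 85.0 and 40.8 CPM in veh NPD, cort NPD, veh HPD and cort HPD. It was lower in cort HPD than in cort NPD (-1.35, SE 0.24, adjusted p = 0.0022), a call that held in all other fits.

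Of 7 genes of HDL remodelling and sterol export, 0 were called higher and 3 lower on each diet. Pltp, the phospholipid transfer protein, fell from 14.9 to 5.16 CPM on the NPD (-1.54, SE 0.35, adjusted p = 0.0087, edgeR) and from 24.6 to 4.70 CPM on the HPD (-2.38, SE 0.37, adjusted p = 0.00066). Abcg8, 1 subunit of the sterol exporter into bile, fell by 0.95 (SE 0.16, adjusted p = 0.00038) and by 1.19 (SE 0.17, adjusted p = 0.00011). Its partner Abcg5 fell by 0.78 (SE 0.19, adjusted p = 0.0080) and by 0.75 (SE 0.20, adjusted p = 0.018), and the latter call ended without cort HPD replicate 2 (-0.58) or veh HPD replicate 3 (-0.68) and with only these groups in the fit (adjusted p = 0.051). Pltp is also made by macrophages, whose 10 markers summed to 310 to 427 CPM in veh NPD, 150 to 260 in cort NPD, 302 to 372 in veh HPD and 200 to 374 in cort HPD, and the part of these cells in its change was not tested.

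**Figure D3:**
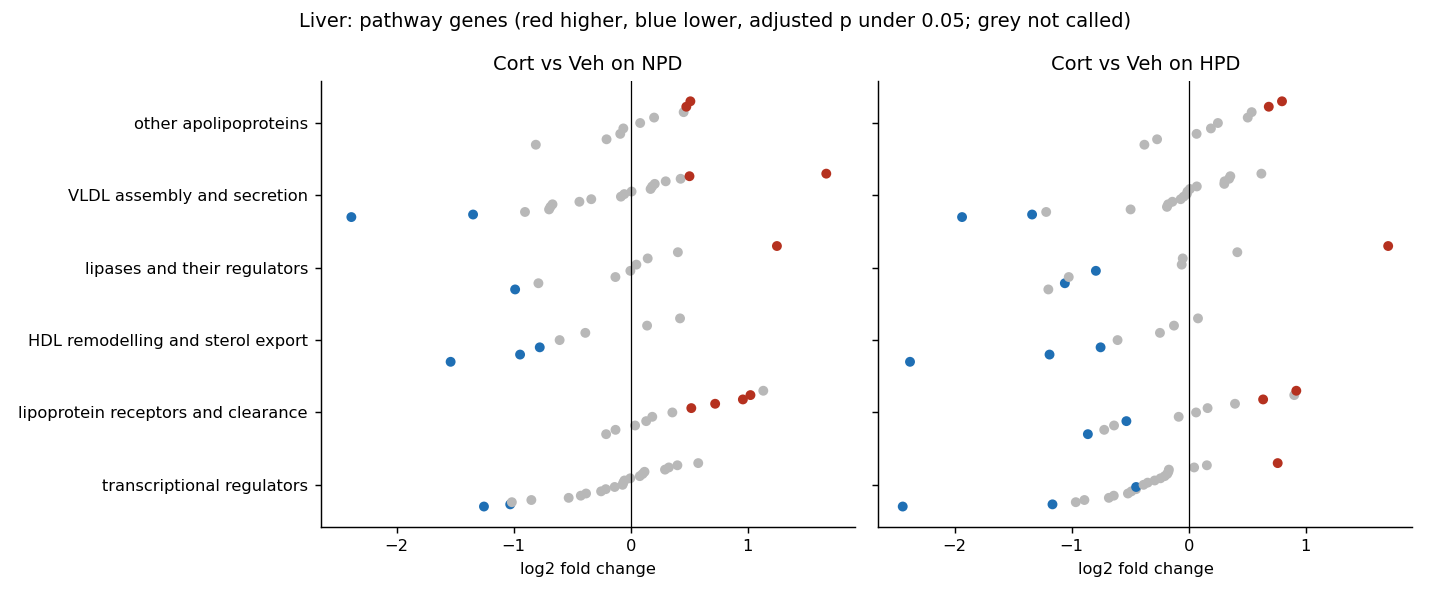
Log2 fold change for cort against veh in liver on each diet for the genes of 6 lists that passed the filter, 1 point per gene, spread vertically within a list by its value; red and blue are called higher and lower at an adjusted p under 0.05, and grey is not called. The list of other apolipoproteins holds no blue point and the list of HDL remodelling holds no red point on either diet.

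Of 11 receptors and clearance genes tested, 4 were called higher and 0 lower on the NPD, and 2 higher and 2 lower on the HPD. Lsr, a lipolysis-stimulated lipoprotein receptor, rose by 1.02 on the NPD (SE 0.17, adjusted p = 0.00026, edgeR), and Sdc1, a proteoglycan that takes up remnants, rose by 0.96 (SE 0.16, adjusted p = 0.00029). Both calls held in all other fits, and on the HPD their values were 0.64 (adjusted p = 0.030) and 0.92 (adjusted p = 0.0015), calls that ended in 7 and 1 of the 23 other fits. Lrp1, a remnant receptor, fell with cort on the HPD by 0.86 (SE 0.16, adjusted p = 0.00099), and was lower in cort HPD than in cort NPD (-0.88, SE 0.15, adjusted p = 0.00087). Scarb1, the HDL receptor, fell on the HPD by 0.53 (SE 0.16, adjusted p = 0.034), a call that ended in 8 of the 23 other fits.

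Of 9 other apolipoproteins tested, 2 were called higher on each diet and 0 lower. Apoc1 and Apoc4, which lie between Apoe and Apoc2 on chromosome 7, were not called in any comparison, with cort values of -0.21 (SE 0.18) and -0.06 (SE 0.16) on the NPD and 0.19 (SE 0.19) and 0.25 (SE 0.17) on the HPD. Apoh, a plasma glycoprotein that binds phospholipid, rose on the HPD from 1351 to 2348 CPM (0.80, SE 0.17, adjusted p = 0.0044, edgeR) and held in all other fits. Its value on the NPD, 0.47 (SE 0.16, adjusted p = 0.047), lost the call in 15 of the 23 other fits. Of 21 transcriptional regulators, 0 were called higher and 2 lower on the NPD (9.52%, beside 12.6% of all genes). On the HPD 1 was called higher and 3 lower (19.0%, beside 9.89%). Ppargc1b, a coactivator of hepatic lipid genes, fell from 15.2 to 7.45 CPM on the NPD (-1.03, SE 0.23, adjusted p = 0.0040) and from 15.8 to 7.00 CPM on the HPD (-1.16, SE 0.24, adjusted p = 0.0032). Nr1h4, the bile acid receptor, was 0.76 higher on the HPD (SE 0.17, adjusted p = 0.0070), without the call when veh HPD replicate 1 was left out (0.58, adjusted p = 0.069). Foxo1, a regulator of Mttp and Apoc3 that insulin restrains, was lower in cort HPD than in cort NPD, at 33.3 against 58.3 CPM (-0.81, SE 0.18, adjusted p = 0.0092), and held in all other fits.

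In eWAT the 10 genes took 0.207% to 0.659% of the counts, most of it Apoe, which macrophages and adipocytes make. Apoe stood at 4613, 3881, 3008 and 3387 CPM in veh NPD and at 2383, 2890, 2945 and 2128 CPM in cort NPD. On the HPD it stood at 4177, 4367, 4130 and 6804 CPM with veh and at 4109, 3237, 3939 and 3548 CPM with cort. Every cort library was below every veh library of its diet. The groups did not overlap for 14.9% of all genes tested on the NPD and 11.3% on the HPD. The log2 change was -0.53 on the NPD (SE 0.16, adjusted p = 0.039, edgeR), where 7.98% of 15187 genes were called, and -0.39 on the HPD (SE 0.16, adjusted p = 0.16), where 6.09% were. The call on the NPD ended without cort NPD replicate 1 or 4 or veh NPD replicate 1 or 2, with changes of -0.41 to -0.50 and adjusted p-values of 0.085 to 0.15. Without veh HPD replicate 4 the change on the HPD was -0.19 (adjusted p = 0.45).

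The cort groups of eWAT did not overlap for 6.66% of all genes tested. Apoe was higher in every cort HPD library than in every cort NPD library of eWAT, by 0.52 (SE 0.16). That difference missed the threshold (adjusted p = 0.20, with 0.487% of genes called) and passed it with only these groups in the fit (adjusted p = 0.018), or when veh HPD replicate 4 was left out (adjusted p = 0.029). With veh the diets differed by 0.39 (SE 0.16, adjusted p = 0.50, 0.0593% of genes called), or by 0.18 without veh HPD replicate 4. The cort effect differed between the diets by 0.13 (SE 0.22, adjusted p = 0.99, 0.0132% of genes called). The summed CPM of 10 macrophage markers was 1334 to 1540 in veh NPD, 1174 to 1485 in cort NPD, 1274 to 1603 in veh HPD and 1300 to 1715 in cort HPD. The sum of 5 red blood cell markers was 12684 to 25856 CPM in cort HPD, against 3619 to 9273 in the other groups. All 5 were called higher in cort HPD than in cort NPD (beside 0.487% of all genes called) and in veh HPD (beside 6.09%). Cort HPD replicate 4 held 3072 CPM of 8 epididymis and testis markers, and without it the cort groups differed in Apoe by 0.54 (adjusted p = 0.29). The part of these cells in the Apoe values was not tested.

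In a fit of all 31 libraries, the cort effect on Apoe was 0.29 higher in liver than in eWAT on the NPD (SE 0.29, adjusted p = 0.71, edgeR) and 0.21 higher on the HPD (SE 0.31, adjusted p = 0.84). At these thresholds 3.85% and 3.12% of 16482 genes were called. The effect on Apoe was thus not shown to differ between the tissues, though on the NPD it passed the test in eWAT and not in liver. The fit treated liver and eWAT libraries as independent, and whether both tissues came from the same mice was not checked.

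Apoc3 was the other gene of the 10 called in eWAT, at a far lower level than in liver. It stood at 4.32, 2.31, 2.02 and 0.896 CPM in veh NPD and at 22.9, 20.4, 36.4 and 11.9 CPM in cort NPD. With the HPD it was at 0.952, 1.04, 1.28 and 12.9 CPM with veh and at 19.3, 19.7, 13.2 and 16.03 CPM with cort. No cort library reached down to a veh library of its diet (groups without overlap: 14.9% of all genes on the NPD, 11.3% on the HPD). Veh HPD replicate 4 stood apart from its group. The change was 3.25 with the NPD (SE 0.81, adjusted p = 0.027, edgeR) and 2.08 with the HPD (SE 0.77, adjusted p = 0.15), and on the HPD it was 3.95 without veh HPD replicate 4 (adjusted p = 1.5e-06) and 3.08 by limma voom (adjusted p = 0.0021). On the NPD the call ended without cort NPD replicate 1 or 3 or veh NPD replicate 2, 3 or 4, with changes of 2.94 to 3.25 and adjusted p-values of 0.056 to 0.086. The summed CPM of 9 hepatocyte markers was 48.5 to 73.0 in veh NPD, 54.5 to 75.8 in cort NPD, 31.5 to 78.8 in veh HPD and 50.6 to 86.2 in cort HPD, and their part in the Apoc3 values was not tested. The other fits of Apoc3 in eWAT were chosen after seeing the data.

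**Figure D4:**
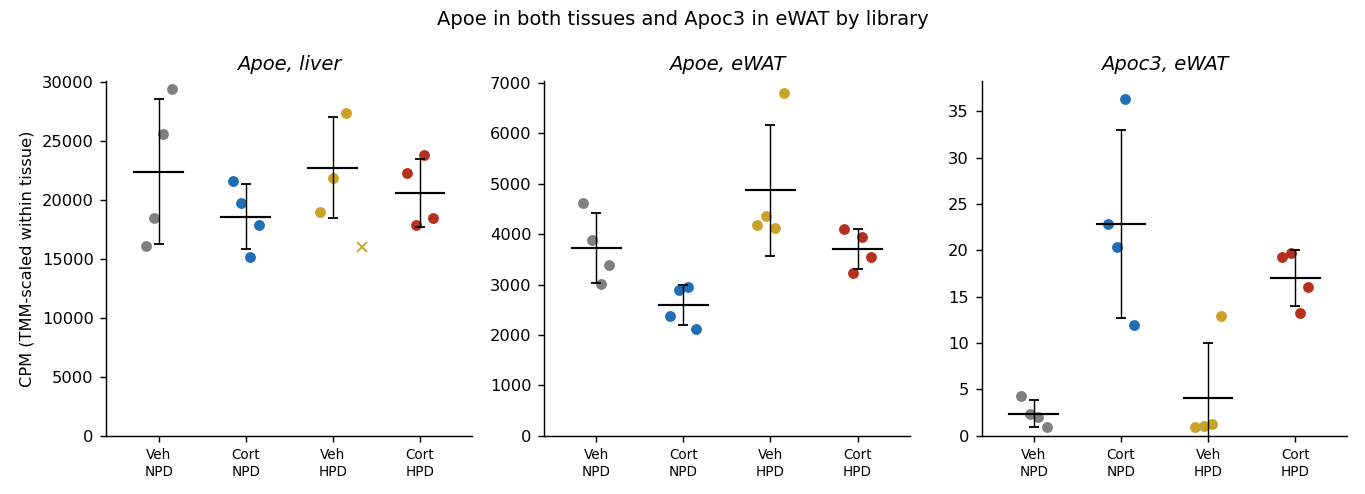
Apoe in liver, Apoe in eWAT and Apoc3 in eWAT, in CPM scaled by TMM factors within the tissue on linear axes from 0, with 1 point per library, a line at the group mean and bars of 1 SD (n = 4, and 3 in liver veh HPD); the cross is the liver library left out. In eWAT the cort libraries lie below the veh libraries of their diet for Apoe and above them for Apoc3.

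Of the other 8 genes in eWAT, Apoa1, Apoa2 and Mttp passed the filter with group means of 1.73 to 2.58, 0.903 to 1.76 and 2.05 to 4.50 CPM, and none was called. Apoa4, Apoa5, Apob, Apoc2 and Apom did not pass it, and no eWAT library held more than 1.24 CPM of any of them.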

How the data were processed

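Libraries were made from total RNA with the QuantSeq 3′ kit, so reads came from transcript ends and levels were compared within a gene only. Raw counts for each Ensembl gene were deposited for all libraries in 1 table, and per the labels their notes name GRCm38 (mm10), R 4.0.3 and limma. The aligner, counter, strand setting and annotation are not given in the sources used here. Groups came from the sample labels, and the liver library that the study marked as an outlier was left out. Of 47643 gene IDs, 47224 were matched to symbols of GENCODE vM21, and 22199 had no count in any library.

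Counts were tested with edgeR 4.0.16 in R 4.3.3 (filterByExpr with a minimum count of 10 and a total of 15, TMM factors, robust quasi-likelihood F test, Benjamini-Hochberg adjustment), with 15 liver and 16 eWAT libraries in separate fits. All 31 were fitted together for the tissue difference of Apoe. The SE of a log2 fold change was the change divided by the root of F, its 95% interval was taken from the SE with normal quantiles, and log2 CPM used a prior count of 2. The fits were tested on simulated data. Alternatives were DESeq2 1.42.0, limma 3.58.1 (voom), other scalings, no filter, all liver libraries, only the groups compared, the replicate block and leaving out each library. Library totals were 8933307 to 17447524 counts in liver and 9794683 to 18057936 in eWAT, and no pair of replicates held identical counts.

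All 10 genes were described in every comparison. Of the other lipoprotein lists, up to 3 called genes per list, direction and comparison with the smallest p could be named, with the 5 genes nearest in pattern to the widest-ranging of the 10. The genes and lists were chosen with earlier results of these data known. Results for 2 of the listed genes are not reported here.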

Additional observations from a re-analysis of the deposited data

Results flagged for a closer look

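In 4 of 50 groups of 4 libraries, 1 library stood far from the rest, with a gap to its nearest neighbour on the log2 CPM scale above Dixon's 95% critical value. The groups were those of the 10 genes in liver and of the 5 that passed the filter in eWAT. Chance flags about 1 in 20 groups. In eWAT, veh HPD replicate 4 held 12.9 CPM of Apoc3 (gap 0.893 of the range) and 6804 CPM of Apoe (gap 0.888), the highest of its group for both genes, and cort HPD replicate 4 held 1.22 CPM of Apoa1 (gap 0.861), the lowest of its group. In liver, veh NPD replicate 3 held 98.3 CPM of Mttp (gap 0.986), where the other 3 libraries lay between 70.3 and 70.6 CPM.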

How the results depend on the processing

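The calls of Apoa4, Apoc3 and Mttp with cort held on both diets in all 23 other fits, with log2 changes of 2.97 to 3.33 and 1.99 to 3.13 for Apoa4, 1.28 to 1.55 and 1.39 to 1.77 for Apoc3, and 1.19 to 1.41 and 0.60 to 1.01 for Mttp, on the NPD and the HPD. For the changes below the cause was not tested.

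With all 16 liver libraries, values on the HPD became 0.049 for Apoa1, 0.050 for Apob and 0.076 for Apom. Diet values with veh became 0.49 for Apoa4, -0.073 for Apob, -0.091 for Apoe and -0.10 for Apom, and the diet difference of Apoc2 became -0.11. The lipoprotein genes called were then 11 on the HPD and 3 for diet with cort, against 18 and 8 with 15 libraries. For diet with cort the count over all genes in that fit is given below, and on the HPD it is not given here. With library totals in place of TMM factors, values on the HPD became -0.17 for Apoa2 and -0.037 for Apoa5, diet values with veh 0.023 for Apoa2, 0.038 for Apoc3 and 0.037 for Mttp, that of Apoe with cort -0.026, and the diet differences -0.089 for Apoa5, -0.11 for Apoc2, -0.016 for Apoc3, -0.11 for Apoe and -0.0078 for Apom. Of the 10 genes, diet with cort then called 2, as did DESeq2 (8.68% of all genes), and 1 with only the groups compared. The share of all genes with library totals or with only the groups compared is not given here. The diet difference called 1 lipoprotein gene by DESeq2, with library totals and without the filter. The diet value of Mttp with veh was 0.0066 by voom and 0.0023 without the filter. Apoe in eWAT was 0.52 for diet with cort, past the threshold, with only the groups compared.

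Same-numbered libraries of different groups within a tissue did not deviate together in the median (r = -0.017 over 21 pairs in liver, and -0.012 over 24 in eWAT). The median r of differently numbered pairs was 0.00081 in liver and 0.0042 in eWAT. Single same-numbered pairs ran from -0.13 to 0.16 in liver and from -0.12 to 0.25 in eWAT. Differently numbered pairs ran from -0.22 to 0.20 and from -0.18 to 0.22. Liver libraries were not compared with eWAT libraries in this way. With a replicate block, Apoe in eWAT on the NPD was -0.52 (adjusted p = 0.073), Apoc3 3.28 (0.061), the diet value of Mttp with veh 0.0035, and diet with cort called 1 of the 10 genes, Apob (-0.82, adjusted p = 0.0062). Apob then also passed with cort on the NPD (0.74, adjusted p = 0.0053). The share of all genes called with the block is not given here.

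Leaving out 1 library gave -0.49 to 0.030 for Apoa1, -0.13 to 0.20 for Apoa2, -0.36 to 0.093 for Apob and -0.26 to 0.018 for Apoe on the HPD, and -0.085 to 0.16 for Apoa5 on the NPD. Diet with veh gave -0.14 to 0.043 for Apoa2, -0.13 to 0.20 for Apob, -0.11 to 0.11 for Apoc3, -0.14 to 0.18 for Apoe and -0.054 to 0.13 for Mttp. The diet difference gave -0.34 to 0.019 for Apoa4, -0.042 to 0.31 for Apoa5, -0.14 to 0.28 for Apoc2 and -0.026 to 0.29 for Apoe. Diet with cort called 0 to 1 of the 10 genes and 3 to 9 lipoprotein genes, and the diet difference 0 to 1. With no further library left out, these comparisons called 5.88% and 0.113% of all genes. The shares in the fits that left out 1 library are not given here. In eWAT, Apoe ran from -0.62 to -0.41 on the NPD and from 0.44 to 0.59 for diet with cort.

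Over all genes in liver, cort on the NPD called 1565 and 998 with all libraries, and diet with cort 729 and 371. Diet with veh called 21, and 111 by DESeq2, 56 without the filter and 7 with all libraries. The diet difference called 14, and 125 by DESeq2, 72 without the filter, 23 with library totals, 9 with RLE factors, 3 by voom and 1 with all libraries. In eWAT, diet with cort called 74, and 195 by DESeq2 and 165 with only the groups compared. Diet with veh called 9 there, and between 4 and 129 in other fits, and the diet difference 2, and between 0 and 9. The tissue difference called 635 and 514, against 422 by voom on the NPD, and 832 by DESeq2 and 330 with only the groups compared on the HPD.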
